A study of Mus musculus with 2 samples.

Results

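Dual-specificity MAP kinase phosphatases are the enzymes that switch mitogen-activated protein (MAP) kinases off. They were described here in nuclear RNA of mouse macrophages through 10 genes chosen by name, Dusp1, Dusp2, Dusp4, Dusp5, Dusp6, Dusp7, Dusp8, Dusp9, Dusp10 and Dusp16, out of 55536 annotated genes. All 10 were found, and their 30 annotated transcripts were present among the 141862 transcripts of both kinds of transcript table. The rule itself uses gene names and no measured value.

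MAP kinases (ERK, JNK and p38) are activated when a threonine and a tyrosine in their activation loop are both phosphorylated. The phosphatases of this family remove both phosphates through one catalytic cysteine, and many of their genes are themselves induced by the pathway, which makes them negative feedback regulators. In macrophages Dusp1 is best known for limiting p38 and JNK activity, and with it cytokine production, after Toll-like receptor 4 has sensed bacterial endotoxin.

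The cells were primary macrophages grown from the bone marrow of C57BL/6J mice, and every library came from the same treatment. Lipid A, the endotoxin part that Toll-like receptor 4 senses, was given at 100 ng/ml for 12 h, washed out for 12 h, and given again at 100 ng/ml for 50 min. RNA of the nucleoplasmic fraction was depleted of ribosomal RNA and sequenced in 2 libraries, replicate 1 from 500 ng and replicate 2 from 1 µg of RNA. The age of the animals was not collected, both libraries carry the same donor entry, and nothing states that they were separate cultures. The spread between them may therefore be technical, and replicate and RNA input cannot be told apart. No unstimulated, singly stimulated or cytoplasmic library was analysed here, and levels are therefore neither a response to lipid A nor a nuclear enrichment.

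Counts in annotated genes summed to 20612114 in replicate 1 and 22772087 in replicate 2. A gene without a count could still have had up to 3 at that depth, or 0.146 and 0.132 CPM (counts scaled to depth), a limit that covers counting error only. The 5 macrophage markers, led by Lyz2 and Adgre1, all lay above the 90th percentile of protein-coding genes. Of 27 markers of other cell types, 7 had 0 counts in both libraries and the median level was 0.025 TPM (transcript abundance, counts divided by effective length and scaled to a fixed total). In such bulk RNA, fewer cells of a type and less RNA per cell cannot be told apart.

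The members share a catalytic site, and reads of a conserved stretch could be divided among them. The codons of that site run from a histidine and the catalytic cysteine to an arginine, and are shown from the GENCODE M21 transcripts of mm10 so that the likeness can be seen. Capitals mark the 11 of 24 bases that are identical in all 10 genes.
Dusp1: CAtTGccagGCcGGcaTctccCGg
Dusp2: CAcTGccaaGCtGGcaTctctCGc
Dusp4: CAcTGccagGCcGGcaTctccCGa
Dusp5: CAcTGcgaaGCtGGggTttccCGg
Dusp6: CAtTGcttgGCaGGtaTcagcCGc
Dusp7: CAcTGcctaGCaGGcaTcagcCGt
Dusp8: CAcTGtctgGCtGGcaTctctCGc
Dusp9: CAcTGtctgGCaGGggTcagcCGc
Dusp10: CAcTGccagGCcGGcgTgtccCGa
Dusp16: CAcTGcttaGCtGGgaTctctCGc

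Dusp4 was nearest to Dusp1, with 22 of 24 bases equal, and Dusp9 was farthest, with 15. Over longer stretches the genes differ. Cut into overlapping windows of 50 bases, the main coding transcripts of 8 of the 10 genes shared no window with any other gene. Dusp8 shared 0.189% of its windows with 3 other genes, none of them a member. Dusp5 shared 20.5%, all with AC137853.2, an antisense gene on the opposite strand of its first exon, which had 2 and 0 counts in replicates 1 and 2. Strand use in the counting was not given in the sources used here. Values of Dusp5 are therefore uncertain to that extent. Dusp1, Dusp8, Dusp10 and Dusp16 also overlap genes on the opposite strand. For Dusp1, Dusp8 and Dusp10 these overlaps lie outside the main coding transcript, and for Dusp16 the overlap lies in its intron 3. Values of these 4 genes are uncertain only as far as their other transcripts reach the overlaps.

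Exon layouts were shared within subgroups of the family. The nuclear phosphatases Dusp1, Dusp2, Dusp4 and Dusp5 each have 4 exons in the main coding transcript, and the third is 220 bases long in all of them. Dusp6 and Dusp7, which act on ERK in the cytoplasm, have 3 exons, with a second exon of 438 and 435 bases. Dusp8 and Dusp16, which act on JNK and p38, have 7 exons and share exon lengths of 139, 160 and 124 bases. Dusp9, also a cytoplasmic ERK phosphatase, and Dusp10 have 4 exons of other lengths.

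Nuclear RNA of the family was dominated by Dusp1 and Dusp2. Together they held 86.1% of the family's summed TPM in replicate 1 and 87.4% in replicate 2, out of sums of 266.2 and 257.5 TPM. Both lay above 28.7 TPM, the 90th percentile of the 12140 protein-coding genes that had at least 10 counts in all, and the other 8 members lay below it. The median of the 10 members was 3.48 TPM, beside a median of 3.58 TPM over those protein-coding genes. In the index-based table, a second kind described below, it was 2.73 TPM beside 1.24 TPM.

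**Figure D1:**
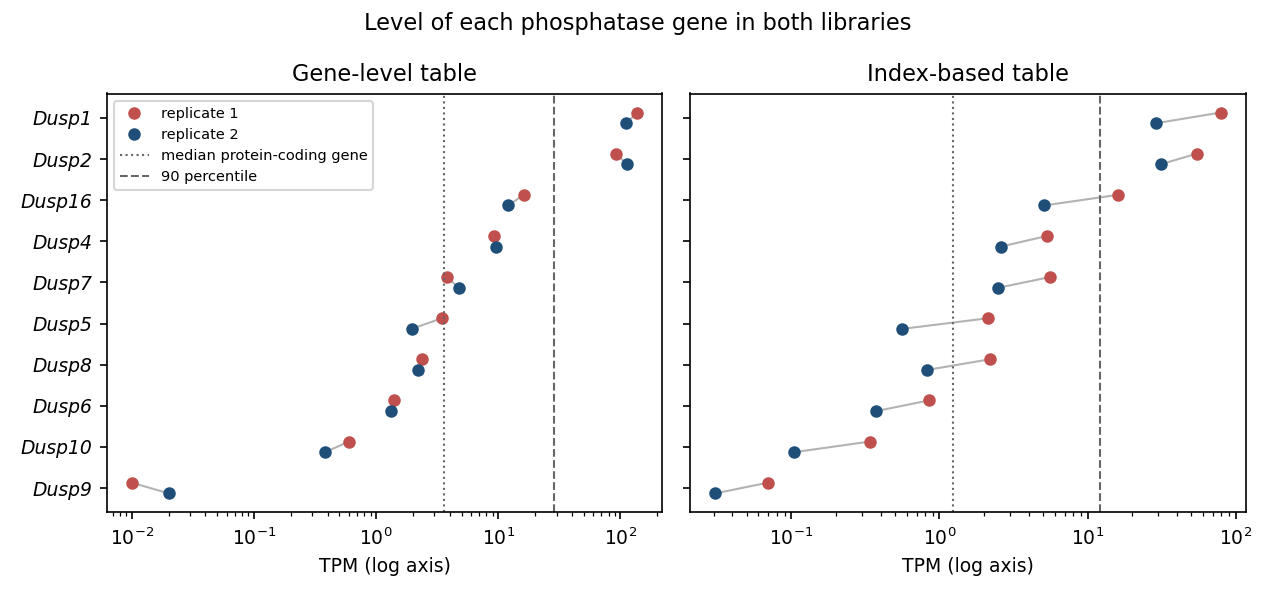
Level of each of the 10 phosphatase genes in TPM on a log axis, in replicate 1 (red) and replicate 2 (blue), in the gene-level table (left) and in the index-based transcript table summed by gene (right). Vertical lines mark the median and the 90th percentile of protein-coding genes, taken over the mean of both libraries. Only Dusp1 and Dusp2 lie beyond the 90th percentile line in both libraries of both tables. Dusp16 lies beyond the index-based line of 12.1 TPM in replicate 1 alone, at 16.1 TPM.

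Among the nuclear, inducible phosphatases, Dusp1 (MKP-1; ENSMUSG00000024190.7, chr17:26505590-26562128, minus strand) stood at 137.3 TPM in replicate 1 and 111.6 TPM in replicate 2, from 6974 and 6128 counts. Its mean of 124.5 ± 18.2 TPM (SD, n = 2) was at the 98.0 percentile of protein-coding genes. Dusp2 (PAC-1; chr2:127336159-127338376, plus strand), first described in activated lymphocytes, stood at 92.0 TPM in replicate 1 and 113.5 TPM in replicate 2, at the 97.5 percentile. Dusp1 was the higher of the pair in replicate 1 and Dusp2 in replicate 2, so their order was not settled by these libraries.

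Dusp4 (MKP-2; chr8:34807297-34819894, plus strand), which acts on ERK and JNK, stood at 9.15 TPM in replicate 1 and 9.65 TPM in replicate 2, at the 71.6 percentile. Dusp5 (chr19:53529109-53542431, plus strand), a nuclear phosphatase selective for ERK, stood at 3.47 TPM in replicate 1 and 1.95 TPM in replicate 2, at the 43.7 percentile. In the gene-level table the 4 nuclear members thus ranged from near the top of protein-coding genes to below their median, while Dusp5 was at the 51.7 percentile in the index-based table.

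None of the cytoplasmic, ERK-selective phosphatases lay above the 90th percentile, and 1 of the 3, Dusp7, lay above the median. Dusp7 (chr9:106368632-106375724, plus strand) stood at 3.77 TPM in replicate 1 and 4.75 TPM in replicate 2, at the 54.0 percentile. Dusp6 (MKP-3; chr10:99263231-99267489, plus strand), a widely studied feedback target of ERK, stood at 1.39 TPM in replicate 1 and 1.33 TPM in replicate 2, at the 30.6 percentile. Dusp9 (MKP-4; chrX:73639419-73643514, plus strand), best known from placenta, had 1 count in replicate 1 and 2 counts in replicate 2, which is under the limit of 3 counts that a count of 0 allows.

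The phosphatases that act on JNK and p38 were led by Dusp16 (MKP-7; chr6:134715468-134792625, minus strand), at 16.1 TPM in replicate 1 and 12.1 TPM in replicate 2, the 79.8 percentile. Dusp8 (chr7:142079490-142095843, minus strand) stood at 2.39 TPM in replicate 1 and 2.19 TPM in replicate 2, at the 40.1 percentile. Dusp10 (MKP-5; chr1:184013302-184075636, plus strand), a regulator of JNK and p38 in innate immunity, stood at 0.60 TPM in replicate 1 and 0.38 TPM in replicate 2, at the 16.4 percentile, from 51 and 34 counts.

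By mean level the order was Dusp1, Dusp2, Dusp16, Dusp4, Dusp7, Dusp5, Dusp8, Dusp6, Dusp10 and Dusp9. Values of neighbours overlapped between the libraries for 2 pairs, Dusp1 with Dusp2 and Dusp5 with Dusp8. The other neighbours kept their order in both libraries. With 2 libraries this is a description and has no test.

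The second kind of table, made from the reads and a transcript index and called index-based here, placed Dusp1 and Dusp2 at the head again. They held 80.4% and 83.3% of the family's index-based TPM in replicates 1 and 2. Its scale differed, however: Dusp1 stood at 78.8 TPM in replicate 1 and 28.9 TPM in replicate 2, which is 0.574 and 0.259 of its gene-level values. Dusp2 showed a like gap, at 54.3 TPM in replicate 1 and 31.1 TPM in replicate 2. The gap was not the same for all members. In replicates 1 and 2, index-based TPM was 0.998 and 0.419 of gene-level TPM for Dusp16, and 0.912 and 0.375 for Dusp8. For Dusp7 the values were 1.48 and 0.526, and for Dusp9, near the floor, 6.93 and 1.53. In the index-based table Dusp16 stood at the 88.5 percentile, Dusp7 at the 73.2 and Dusp8 at the 53.7. All 10 members had less index-based TPM in replicate 2 than in replicate 1, although the depth-scaled counts of the same table, below, differed in both directions. TPM of the index-based table was therefore not compared between libraries. Its percentiles and medians, however, come from the mean of both libraries, in which replicate 1 weighs more for every member.

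Within libraries, some members changed place in the index-based table. In replicate 1 Dusp7, at 5.57 TPM, stood above Dusp4, at 5.32 TPM, while in replicate 2 Dusp7, at 2.5 TPM, stood below Dusp4, at 2.60 TPM, as in the gene-level table. Dusp8 stood above Dusp5 in both libraries, at 2.18 against 2.14 TPM in replicate 1 and 0.822 against 0.561 TPM in replicate 2. For Dusp7, Dusp7-202, a processed transcript of 270 bases, took 54.6% of its index-based TPM in replicate 1 and 49.8% in replicate 2 from only 27 and 21 counts, and had 0 counts in the alignment-based table. Dusp9 had 15 and 12 index-based counts, or 0.0693 and 0.0307 TPM.

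Differences between the libraries were within 2-fold for every member tested. A gene was called where a two-sided exact binomial test of its counts, given library shares scaled by TMM, had a Benjamini-Hochberg adjusted p under 0.05 and the counts differed at least 2-fold. The test sets 1 library against 1 and covers counting error only, so it compares these libraries and not conditions, and the difference has no replicate check. Of the 9 members tested, with Dusp9 under the minimum of 10 counts, 0 were called, against 1073 of 16140 genes, or 6.65%, over the whole table. Among index-based counts, 0 of 10 members were called, against 9.26% of 24957 genes. Whatever their fold, 5 of 9 members had an unadjusted p under 0.05 by the exact test in the gene-level table, against 45.0% of all genes, and 6 of 10 had one in the index-based table, against 45.6%. An edgeR exact test called 0 members at a preset dispersion of 0.01, against 4.60% of all genes, and 0 at 0.04, against 1.21%. With 9 or 10 members, counts of 0 are near these shares.

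Read without the fold minimum, Dusp1, Dusp5 and Dusp16 were higher in replicate 1. These 3 members compare with 19.0% of all genes tested. Dusp2 and Dusp7, 2 members, were higher in replicate 2, where 19.7% of all genes lay. The median log2 ratio, replicate 1 over replicate 2, was 0.14 over the members and -0.0057 over all genes, and the median absolute ratio was 0.37 over the members and 0.32 over all genes. Both directions thus occurred within the family at shares that are read against that background. By index-based counts, 3 members were higher in replicate 1, against 19.0% of all genes, and 3 were higher in replicate 2, against 20.1%, where Dusp4 joined Dusp2 and Dusp7 at an adjusted p of 0.042 by the same exact binomial test.

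Dusp5 differed most. Its 260 counts in replicate 1 and 152 counts in replicate 2 gave a log2 ratio of 0.84 (95% counting interval 0.55 to 1.14), or 1.79-fold higher in replicate 1, with an adjusted p of 5e-08 by the exact binomial test. With the preset dispersion of 0.01 its adjusted p was 0.017 by edgeR's exact test, and with 0.04 it was 0.74. Over all 8 alternative settings its adjusted p by exact tests ran from 2.2e-09 to 0.74. Dusp5 was the only member with an adjusted p under 0.05 at the dispersion of 0.01, and no member had one at 0.04.

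The abundant members differed little, although their depth made small differences pass. Dusp1 had a log2 ratio of 0.25 (0.20 to 0.30) and Dusp2 one of -0.30 (-0.36 to -0.23). Dusp16 had a log2 ratio of 0.37 (0.28 to 0.47) and Dusp7 one of -0.47 (-0.68 to -0.26). Intervals of Dusp4, Dusp6, Dusp8 and Dusp10 included 0, and for Dusp10 the interval ran from -0.0033 to 1.32, so a difference of 2-fold was not excluded at its depth. Summed markers of other cell types were 8.39 TPM in replicate 1 and 16.9 TPM in replicate 2. Most of that sum was Kdr, an endothelial receptor, at 5.10 and 13.2 TPM. Kdr was called, with a log2 ratio of -1.35, where 6.65% of all genes tested were called. The other endothelial markers of the list were not called. Pecam1 stood at 0.60 TPM in replicate 1 and 0.78 TPM in replicate 2, with a log2 ratio of -0.075. Cdh5 stood at 0.31 and 0.32 TPM, with a log2 ratio of -0.70 from 11 and 19 counts. These counts are too low to settle whether Cdh5 shared the difference of Kdr. The part of these markers in the members' differences was not tested.

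Retained-intron transcripts took a large share of Dusp1, and a share of Dusp2 that lay within the quartiles of the genes compared below. Of the 30 transcripts, 18 are annotated as protein-coding, 4 as retained introns, 6 as processed transcripts and 2 as targets of nonsense-mediated decay. The 4 retained-intron transcripts belong to 3 genes, Dusp1, Dusp2 and Dusp16. Among the 34 introns of the main coding transcripts, 3 are held whole by such a transcript, 2 in Dusp1 and 1 in Dusp2.

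The splice sites of these 3 introns are shown because the retained-intron values of both genes rest on reads across them. Each line gives 20 exonic and 30 intronic bases at one end of an intron, read along the gene from GENCODE M21 transcripts of mm10, with the first 2 and last 2 intronic bases in capitals. Intron 2 of Dusp1 (chr17:26507205-26507573, minus strand) has 369 bases, intron 3 of Dusp1 (chr17:26506651-26506984, minus strand) has 334, and intron 2 of Dusp2 (chr2:127336899-127337248, plus strand) has 350.
Dusp1 intron 2, 5′ end: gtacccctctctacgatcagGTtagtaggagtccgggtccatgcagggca
Dusp1 intron 2, 3′ end: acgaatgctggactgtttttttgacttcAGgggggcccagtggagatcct
Dusp1 intron 3, 5′ end: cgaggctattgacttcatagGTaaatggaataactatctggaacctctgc
Dusp1 intron 3, 3′ end: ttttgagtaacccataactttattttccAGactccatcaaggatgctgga
Dusp2 intron 2, 5′ end: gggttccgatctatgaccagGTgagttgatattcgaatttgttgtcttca
Dusp2 intron 2, 3′ end: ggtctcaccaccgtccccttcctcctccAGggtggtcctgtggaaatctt

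All 3 introns begin with GT and end with AG. Their length is near the median of 287 bases (quartiles 122 and 767) over all 5704 introns that retained-intron transcripts hold whole in the genes compared below. Reading on from the exon before, a stop codon in frame follows 109 bases into intron 2 of Dusp1, at codon 208 of a reading frame of 367 codons. The stop follows 45 bases into intron 3 of Dusp1, at codon 260. In Dusp2 it follows 7 bases into intron 2, at codon 177 of 318. The catalytic codons lie in exon 4 of both genes, downstream of these introns.

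**Figure D2:**
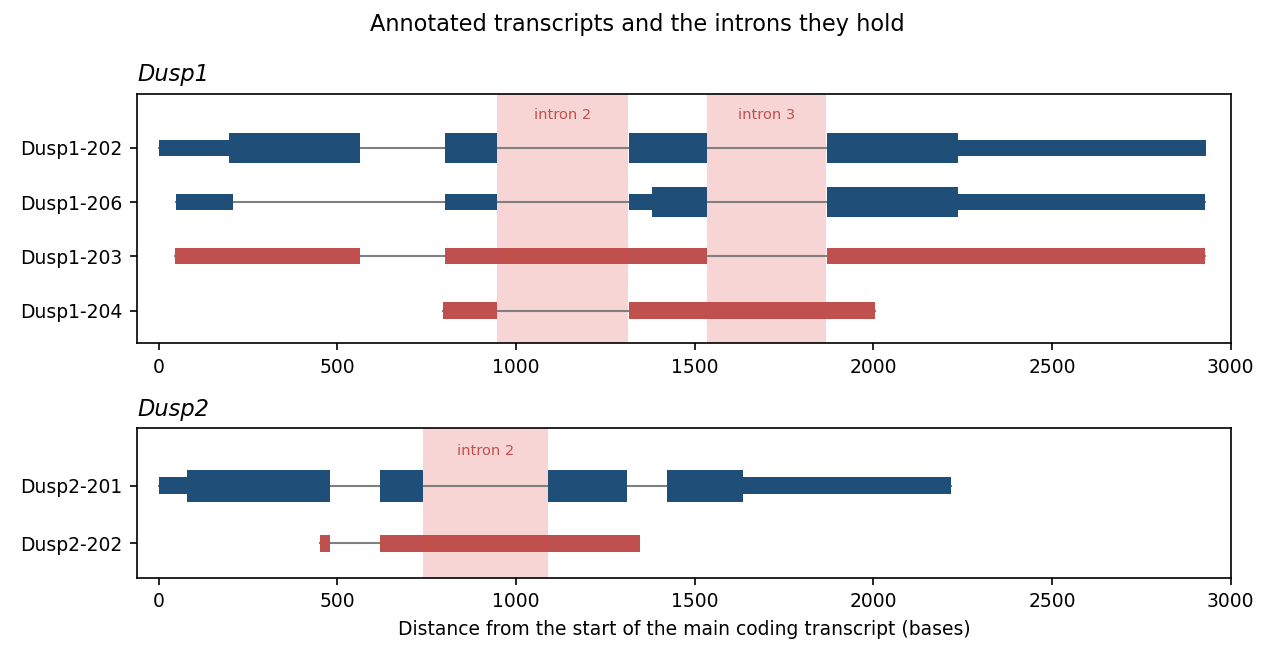
Annotated transcripts of Dusp1 and Dusp2 by distance in bases from the start of the main coding transcript, with exons as bars, coding sequence as taller bars and retained-intron transcripts in red. Shading marks the 3 introns held whole, intron 2 and intron 3 of Dusp1 and intron 2 of Dusp2; the transcripts Dusp1-201 and Dusp1-205, at 0 TPM in the alignment-based table, reach farther upstream and are not drawn.

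More of Dusp1's nuclear RNA was assigned to retained-intron transcripts than to coding ones. The share of its transcript TPM in the 2 retained-intron transcripts was 58.1% in replicate 1 and 58.3% in replicate 2 (58.2% ± 0.168, SD, n = 2). Dusp1-203, which holds intron 2, stood at 48.1 TPM in replicate 1 and 36.2 TPM in replicate 2. Dusp1-204, which holds intron 3, stood at 31.7 TPM in replicate 1 and 29.0 TPM in replicate 2. The share was at the 93.4 percentile of 5196 genes that had 100 or more counts in each library and a retained-intron transcript, where the median was 21.5% with quartiles of 10.5% and 36.7%. A share over 50% was found in 600 of these genes, or 11.5%.

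Dusp2 was nearer to the other genes. Its retained-intron transcript Dusp2-202 stood at 29.9 TPM in replicate 1 and 38.8 TPM in replicate 2, beside 62.1 and 74.7 TPM of the coding Dusp2-201. The share was 32.5% in replicate 1 and 34.2% in replicate 2 (33.3% ± 1.20), at the 70.1 percentile. Because Dusp2-202 is shorter than the coding transcript, 756 against 1617 bases, its share of counts was only 15.6% in replicate 1 and 17.1% in replicate 2. For Dusp1 the shares of counts were 57.3% and 53.3%.

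Dusp16 had little. Its retained-intron transcript Dusp16-206 extends an exon into intron 4 and holds no intron whole, and it took 0% of the gene's TPM in replicate 1 and 1.90% in replicate 2, the 3.19 percentile. The other 7 members have no such transcript in the annotation, so retention in them was not measurable by these shares. The tables have no row for unspliced precursors, and in nuclear RNA a read across a retained intron cannot be told apart from one across an intron that is still to be spliced.

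**Figure D3:**
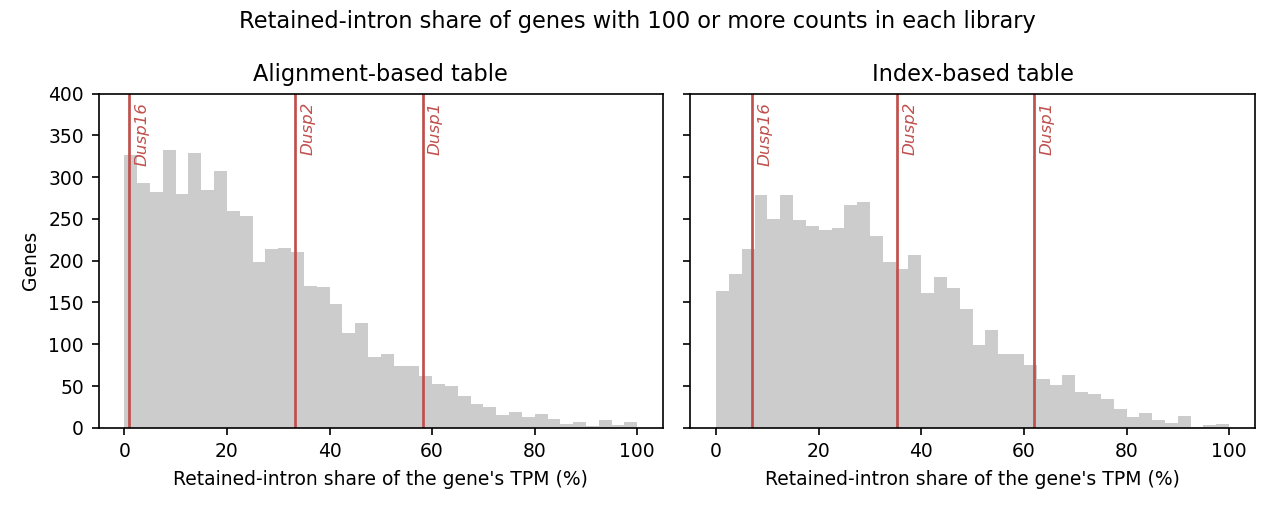
Number of genes by their retained-intron share of transcript TPM, as the mean of both libraries, in bins of 2.5 percentage points over 5196 genes, in the alignment-based table (left) and the index-based table (right, without 1 gene that had no index-based TPM). Red lines mark Dusp16, Dusp2 and Dusp1, at 0.950%, 33.3% and 58.2% on the left and 7.02%, 35.3% and 62.0% on the right.

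The index-based table gave like shares for both genes. It placed 63.3% of Dusp1 in retained-intron transcripts in replicate 1 and 60.7% in replicate 2, at the 92.4 percentile of the same genes. Dusp2 had 33.1% in replicate 1 and 37.4% in replicate 2, at the 64.0 percentile. Dusp16 had 9.54% in replicate 1 and 4.50% in replicate 2, from 59 and 16 counts.

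The coding RNA of Dusp1 was divided differently in the libraries. Dusp1-202, which encodes the whole protein from 1101 coding bases, stood at 27.5 TPM in replicate 1 and 46.5 TPM in replicate 2, or 20.0% and 41.7% of the gene. Dusp1-206, which lacks part of exon 1 and has a coding sequence of 522 bases, stood at 30.1 TPM in replicate 1 and 0 TPM in replicate 2. The authors' bounds for its TPM were 24.8 to 33.6 in replicate 1 and up to 1.12 in replicate 2. The index-based table listed it at 5.97 TPM in replicate 1 and 0 TPM in replicate 2. Both tables thus assigned reads to Dusp1-206 in 1 library alone, while its level differed between them. The tables come from the same 2 libraries, so they are not independent of each other.

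Dusp6 showed the same kind of split at low depth. Dusp6-201, the full transcript with 3 exons, stood at 0 TPM in replicate 1 and 0.77 TPM in replicate 2. Dusp6-204, which skips the exon of 438 bases, stood at 1.06 TPM in replicate 1 and 0.56 TPM in replicate 2, from 75 and 41 counts. Dusp6-202, a processed transcript, took 23.7% of the gene in replicate 1 from 6 counts, and 0% in replicate 2. Dusp6-203, another processed transcript, was listed at 0 in the alignment-based table and took 7.62% and 10.3% of index-based TPM from 4 counts in each library.

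Dusp16 was divided among 3 coding transcripts. Dusp16-201, with the full coding sequence of 1980 bases, stood at 3.78 TPM in replicate 1 and 5.0 TPM in replicate 2. Dusp16-202 stood at 5.15 TPM in replicate 1 and 2.55 TPM in replicate 2, and Dusp16-204 at 7.11 and 4.07 TPM. Their coding sequences are shorter, with 1014 and 618 bases. The full-length transcript held 23.4% of the gene in replicate 1 and 41.3% in replicate 2. In the index-based table Dusp16-205 and Dusp16-203, short transcripts at or near 0 in the alignment-based table, took 19.3% and 13.0% in replicate 1 and 18.4% and 17.0% in replicate 2. These shares rest on 98 and 71 of the gene's 3254 index-based counts in replicate 1, and on 53 and 53 of 2026 in replicate 2.

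Of the remaining members, Dusp4, Dusp5, Dusp9 and Dusp10 were each assigned to 1 coding transcript in the alignment-based table. Dusp8 was too. The index-based table, however, put 37.7% of Dusp8 in replicate 1 and 28.3% in replicate 2 in the shorter Dusp8-202, from only 47 and 24 counts. Dusp7-201 held 78.8% of Dusp7 in replicate 1 and 90.9% in replicate 2, and the processed transcript Dusp7-204 held 21.2% and 6.53%. Across the family, the authors' bounds for TPM did not overlap between the libraries for 11 of the 30 transcripts. These 11 were among 17 with 10 or more counts in all, against 18.1% of the 42882 such transcripts over the whole table, which were not matched to the members' depth. They include Dusp1-202, Dusp1-203, Dusp1-206, Dusp2-201, Dusp2-202 and all 3 coding transcripts of Dusp16 named above.

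**Figure D4:**
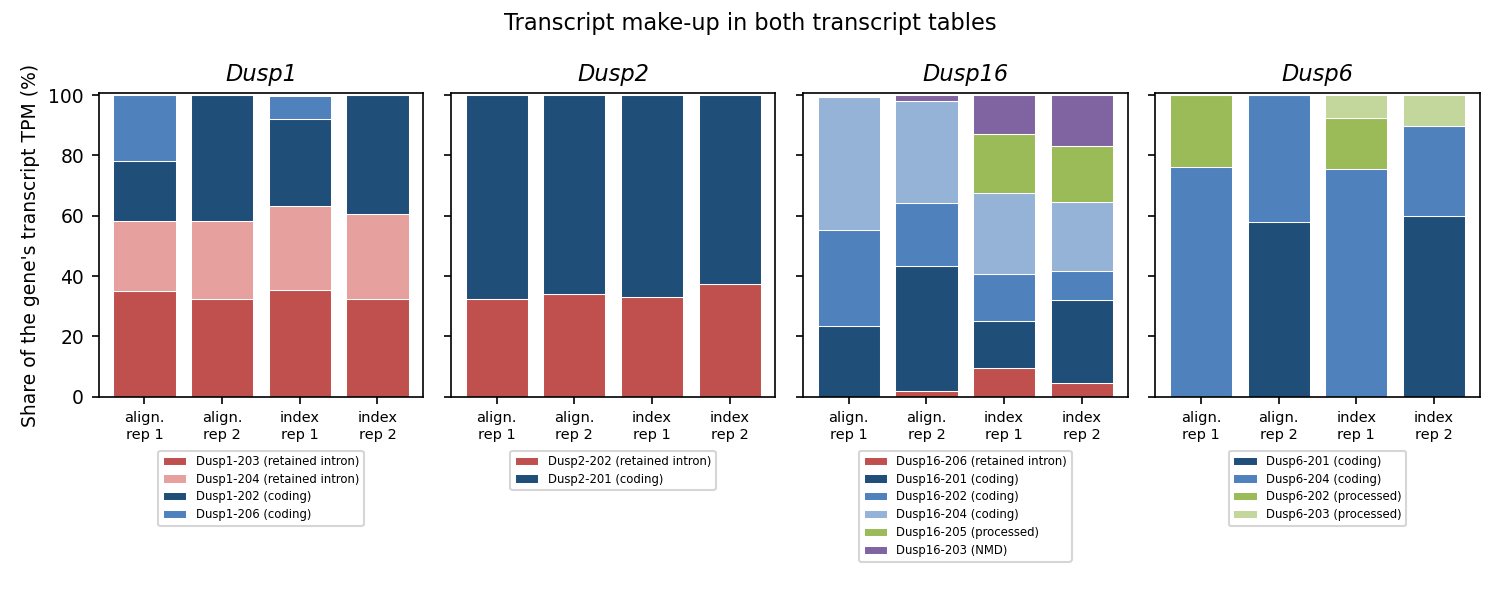
Share of the gene's TPM in each transcript of Dusp1, Dusp2, Dusp16 and Dusp6, in percent, with replicate 1 left of replicate 2 in the alignment-based table (align.) and again in the index-based table. Retained-intron shares of Dusp1 (58.1% and 58.3%) are near each other between libraries, while its coding transcripts are divided differently. Dusp1-206 and Dusp6-201 are each assigned TPM in 1 library alone. Transcripts under 1% in every column are not drawn.

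Of the 10 MAP kinases, which the family acts on, 6 lay above the median of protein-coding genes. The list had a median of 6.33 TPM, led by Mapk14 (p38α) at 17.4 ± 2.09 TPM, and none lay above the 90th percentile. Mapk8, a JNK gene, stood at 6.00 TPM in replicate 1 and 4.93 TPM in replicate 2, and Mapk13 was at 0 counts in both. Each of these was below Dusp1 and Dusp2 in both libraries. The 7 MAP kinase kinases had a median of 9.39 TPM, with Map2k1, Map2k2 and Map2k3 at 19.8, 17.2 and 8.45 TPM. The 13 kinases above them had a median of 10.6 TPM, with Map3k8, the TPL2 kinase that links Toll-like receptors to ERK, at 25.8 TPM. No gene of these 3 lists was called between the libraries.

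Other restraints on the pathway, and relatives of the family, all lay below Dusp1 and Dusp2. The 7 Sprouty and Spred genes, which dampen signalling to ERK, had a median of 1.07 TPM, although Spred1 reached 41.3 ± 8.11 TPM and Spred2 2.85 TPM. The 7 other phosphatases that act on MAP kinases had a median of 3.86 TPM, led by Ppm1b and Ppp2ca, both at 14 TPM, with Ptpn7 at 3.87 TPM. None of either list was called. The 16 atypical dual-specificity phosphatases, relatives that lack the kinase-binding domain, had a median of 0.610 TPM, with Dusp11 at 27.4, Dusp3 at 15.0 and Styx at 1.95 TPM. There 1 of 10 tested genes was called higher in replicate 1, Dusp18 at 57 and 25 counts, and 1 higher in replicate 2, Dusp28 at 54 and 116 counts, both named after their values were seen and read against the 6.65% of all genes called. With library totals 1 of the list was called. With 100 or more counts in each library none of the 4 genes still tested was called, but that minimum leaves out Dusp18 and Dusp28.

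Downstream of the kinases, the 10 kinases that they activate had a median of 11.1 TPM, led by Mapkapk2, which p38 activates, at 88.4 ± 5.47 TPM and Mknk1 at 23.5 TPM, with Rps6ka2 at 1.34 TPM. None was called. The 12 early target genes had a median of 34.6 TPM, and 6 lay above the 90th percentile. Zfp36, which destabilises cytokine mRNAs, stood at 268.3 ± 16 TPM and Junb at 153.4 ± 35.4 TPM, both above Dusp1 by mean level. Junb was below Dusp1 in replicate 1, at 128.4 TPM, and above it in replicate 2, at 178.4 TPM. Fos, at 36.7 TPM in replicate 1 and 18.4 TPM in replicate 2, was the 1 called gene of that list, 2.06-fold higher in replicate 1 with an adjusted p of 2.5e-66 by the exact binomial test. The calls of Fos, Dusp18 and Dusp28 were lost in edgeR's exact test at the preset dispersion of 0.04.

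Genes with a pattern like that of Dusp1 were sought by the distance between log2(TPM + 0.1) values over 4 values, the 2 libraries in the gene-level and the index-based table. The nearest protein-coding genes were Abca1 at a distance of 0.21, Cd83 at 0.23 and Marcks at 0.25. Abca1 stood at 124.7 TPM in replicate 1 and 101.0 TPM in replicate 2 of the gene-level table, beside 137.3 and 111.6 TPM for Dusp1. With 4 values this likeness is mainly one of level.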

How the data were processed

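Per the file headers and the deposited descriptions, all tables use mm10 and GENCODE M21, with replicates kept separate. The authors deposited a gene-level and a transcript table from transcriptome alignments and a transcript table from a transcript index, each with expected counts and TPM. The authors also deposited the percent of a gene's TPM per transcript and bounds for TPM, whose level is not given; shares here were computed from TPM. The sources used here give no aligner, quantifier or strand setting. Rows naming no gene (0.144% and 0.0810% of counts) were left out.

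Expected counts were rounded to whole numbers, and library shares came from TMM factors of edgeR 4.0.16 in R 4.3.3. Genes with a summed count of at least 10 were compared by a two-sided exact binomial test (SciPy 1.17.1), adjusted over all of them by Benjamini-Hochberg, after adding 0.5 to counts in ratios. The test was tried on simulated data. Levels used log2(TPM + 0.1). Alternatives were library totals, DESeq2 1.42.0 size factors, count minimums, edgeR exact tests with preset dispersion, no fold minimum, pseudocount 1, shares of counts, the index-based table, and each library alone.

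All 10 members were named, and in each gene list the 2 highest genes and the 1 with the largest ratio at 100 or more counts in both libraries, the 3 genes nearest to Dusp1, every retained-intron transcript and each transcript with 10% or more of its gene. Values of 2 genes that this rule names are not reported here. Members and lists were chosen with earlier results of these data known.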

Additional observations from a re-analysis of the deposited data

How the results depend on the processing

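Without the fold minimum 5 members passed the exact binomial test, against 0 with it, and 6255 of 16140 genes did. The count of members called was 0 under the other 7 alternatives. Over all genes, 1054 of 16140 were called with library totals and 1071 with DESeq2 size factors. Without a count minimum 1090 of 22502 were, and with 100 or more counts in each library 180 of 8641. Shares at the preset dispersions and in the index-based table are given above. With 7 to 10 members tested, counts of 0 are near such shares. The log2 ratio of Dusp4, -0.071, turned to 0.00722 with library totals. The other member ratios kept their direction, and no member's call changed under an alternative other than the missing fold minimum, where those of Dusp4, Dusp6, Dusp8 and Dusp10 did not change either. The median member level, 1.78 as log2(TPM + 0.1), was 1.24 in the index-based table, 2.12 with a pseudocount of 1, and 1.74 to 1.89 with 1 library left out. The retained-intron share of Dusp1 was 62.0% in the index-based table and 55.3% by counts, and 58.1% to 58.3% with 1 library left out. That of Dusp2 was 35.3%, 16.4% and 32.5% to 34.2%, and that of Dusp16 was 7.02% in the index-based table and 0 to 1.90% with 1 library left out. Members above the 90th percentile were 2 under all 4 alternatives. Of 80 counts for the other lists, 18 moved over 1.5 times: 10 of them came without the fold minimum, and at a dispersion of 0.04 Fos, Dusp18, Dusp28 and Kdr were no longer called. The cause of these shifts was not tested. No paired analysis was possible because all libraries belong to 1 group.

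Depth limits Dusp9 and Dusp10 most, and transcript values rest on how shared reads were divided. With 2 libraries of 1 group, SDs and bounds do not cover the spread between cultures or animals.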
